A study of Homo sapiens with 12 samples.

Results

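The genes described here are 10 members of the BCL2 family, the proteins that decide whether the outer membrane of the mitochondrion is breached in apoptosis. They were taken by symbol from a table of reads counted per gene: BCL2, BCL2L1, MCL1, BAX, BAK1, BCL2L11, BBC3, PMAIP1, BMF and BIK. The table held 20114 genes, 13872 of them had enough counts to test, and all 10 members were among those tested. The cells were T47D, an established line from a human breast carcinoma in which the progesterone receptor is made. All of them were starved of serum and then given vehicle, a progestin (a ligand of that receptor) at 100 pM, or the progestin at 10 nM, and RNA was taken at 6 h or at 18 h. That made 6 groups of 2 libraries, numbered replicate 1 and replicate 3 by the submitters. The labels do not say whether 2 libraries with the same treatment stem from different cultures, so every p-value below measures only the spread between these samples, which may be technical.

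The family works by binding within itself. The anti-apoptotic members (BCL2, BCL2L1 and MCL1) hold the effectors BAX and BAK1 in check, and the effectors, once free, form pores that release cytochrome c from mitochondria. The BH3-only members (BCL2L11, BBC3, PMAIP1, BMF and BIK) relay stress signals by occupying the anti-apoptotic proteins or by activating the effectors directly, and in breast epithelium BCL2L11 and BMF are known for their part in the death of cells that lose their anchorage. RNA levels do not show protein levels, which for MCL1 and PMAIP1 in particular are set by rapid degradation.

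Total counts ran from 34204970 to 41373890 per library. The summed level of 9 luminal epithelial markers was 11100 to 11800 CPM in the vehicle libraries (CPM, counts scaled to library size with TMM factors), while that of 4 basal markers was at most 13 CPM in any library and that of 4 immune markers at most 1.86 CPM. Among 4 fibroblast markers COL1A1 reached 114 CPM and the others stayed under 1 CPM. The luminal sum fell to between 7010 and 7040 CPM at 10 nM for 6 h and between 5330 and 5420 CPM at 10 nM for 18 h, and its part in the results below was not tested. PGR, which encodes the receptor of the ligand, measured 1786 and 2111 CPM in vehicle at 6 h and 493 and 589 CPM at 10 nM (log2 fold change -1.85 ± 0.30 SE, edgeR adjusted p = 0.00124).

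The promoters of 3 members are shown because the results below turn on these genes: BCL2 gave the largest fall, and BCL2L11 and BMF rose together at the higher dose at both times. Each stretch is the 250 bases before the annotated start in RefSeq (GRCh38.p14), read 5′ to 3′ on the gene's strand and matched by symbol. Matches to the motifs listed after the sequences are in capitals. BCL2 lies at chr18:63319770-63320019 on the minus strand, BCL2L11 at chr2:111120664-111120913 on the plus strand and BMF (the first of 2 start sites) at chr15:40108880-40109129 on the minus strand.
BCL2: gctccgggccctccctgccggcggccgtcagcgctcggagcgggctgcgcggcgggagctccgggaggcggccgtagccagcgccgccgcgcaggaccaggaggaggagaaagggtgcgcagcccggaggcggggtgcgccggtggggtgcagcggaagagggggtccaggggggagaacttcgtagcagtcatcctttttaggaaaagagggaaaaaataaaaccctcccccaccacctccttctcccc
BCL2L11: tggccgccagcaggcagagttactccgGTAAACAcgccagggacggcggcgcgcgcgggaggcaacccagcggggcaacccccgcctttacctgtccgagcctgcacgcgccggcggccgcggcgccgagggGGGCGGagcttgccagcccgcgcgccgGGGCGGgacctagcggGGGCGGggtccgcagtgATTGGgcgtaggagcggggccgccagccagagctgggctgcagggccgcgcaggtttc
BMF: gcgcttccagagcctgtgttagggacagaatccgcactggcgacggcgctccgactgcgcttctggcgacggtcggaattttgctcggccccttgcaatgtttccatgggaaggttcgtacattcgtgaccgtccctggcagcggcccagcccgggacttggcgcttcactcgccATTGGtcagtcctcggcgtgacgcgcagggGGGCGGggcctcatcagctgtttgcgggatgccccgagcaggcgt
Of the 10 members 8 were matched to 10 such windows, and MCL1 and BIK were not matched. Both strands were searched, and shares are of all 35116 windows of this length. The full progesterone and glucocorticoid receptor element, searched as TGTTCT and its reverse complement in inverted order with 3 bases between, was in 0.00285% of all windows, and the hexamer TGTTCT, which lies inside the full element, in 12.4%. Neither was in a member's window, and neither was the estrogen receptor element, searched as GGTCA and TGACC with 3 bases between (0.0399% of all windows). The forkhead motif TGTTTAC (2.98% of all windows) was in the window of BCL2L11, at positions -223 to -217 relative to the start and on the opposite strand. The E-box CACGTG (6.34%) was in the windows of BBC3 and BAX, with 4 copies in BAX. The GC box GGGCGG (42.6%) and the CCAAT box (32%) were each in 5 of the 10 windows. Both were in the window of BCL2L11 and in the first of the 2 windows of BMF, and the second BMF window held neither. The window of BCL2 held none of the 7 motifs, with a GC content of 70% against a median of 58% over all windows. These matches describe letters only, and a missing match says nothing about a factor.

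Expressed per kb of exon, so that genes can be set side by side, MCL1 and BCL2L1 were the most abundant members in every group. In vehicle at 6 h MCL1 had a mean of 104 CPM per kb and BCL2L1 of 98.9 CPM per kb, with overlapping libraries. BAX (18.7) and BMF (15) came next, their libraries apart from each other and from the genes on either side of them. BIK (9.35), BBC3 (9.30), BAK1 (7.80) and BCL2L11 (6.36) followed, each overlapping the next, and BCL2 (1.26) and PMAIP1 (0.953) came last and overlapped. The order at the top differed by dose: at 10 nM BCL2L1 led MCL1, by 248 against 93.1 CPM per kb at 6 h and by 173 against 101 CPM per kb at 18 h, with no overlap. BMF followed these 2 at 10 nM, at 27.5 CPM per kb at 6 h and 49.3 CPM per kb at 18 h, and BCL2 was last in all 4 groups that received progestin.

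**Figure D1:**
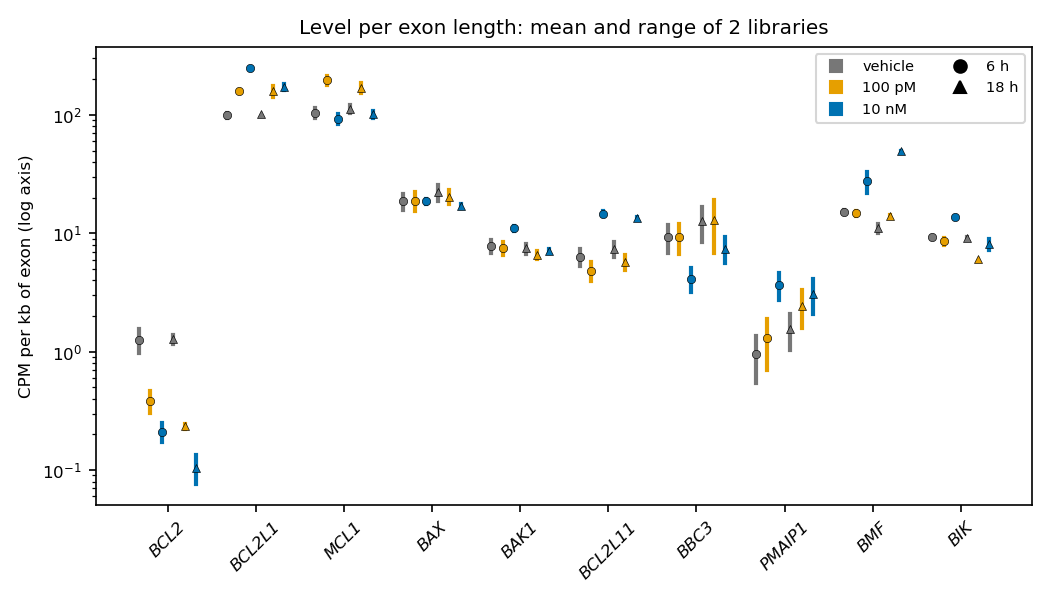
Level of each BCL2 family gene in CPM per kb of exon (log axis), by dose (colour) and time (circles 6 h, triangles 18 h); points are means and bars the range of 2 libraries. MCL1 and BCL2L1 lie near or above 100 CPM per kb in every group, BMF rises to 49.3 at 10 nM for 18 h, and BCL2 falls from 1.26 in vehicle at 6 h to 0.105 at 10 nM for 18 h.

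BCL2, the founding anti-apoptotic member and a known estrogen-responsive gene in breast cells, was lower at both doses and both times. Vehicle libraries measured 18.2 CPM in replicate 1 and 11.4 in replicate 3 at 6 h, and 16.3 and 13.5 CPM at 18 h. At 100 pM the libraries had 5.51 and 3.54 CPM at 6 h and 2.62 and 2.90 CPM at 18 h. At 10 nM they had 2.91 and 2.03 CPM at 6 h and 1.58 and 0.899 CPM at 18 h. All 8 treated libraries lay below all 4 vehicle libraries, and at each time both 10 nM libraries lay below both 100 pM libraries. In bulk RNA, fewer cells with the transcript and less of it per cell cannot be told apart. The fall at 10 nM was 5.98-fold at 6 h (log2 fold change -2.58 ± 0.35, adjusted p = 0.000497) and 12-fold at 18 h (-3.59 ± 0.37, adjusted p = 0.000148). At 100 pM for 18 h it was 5.41-fold (-2.43 ± 0.35, adjusted p = 0.00347), and at 100 pM for 6 h 3.26-fold (-1.71 ± 0.33, adjusted p = 0.0264). The step from 100 pM to 10 nM was -1.16 ± 0.37 at 18 h (adjusted p = 0.0489) and -0.88 ± 0.34 at 6 h (adjusted p = 0.0779, not called). This 6 h step was called with DESeq2 (adjusted p = 0.0433) and with replicate number as a block in the edgeR fit (0.0028). The change of the effect between the times was not called at either dose (10 nM -1.01 ± 0.49, adjusted p = 0.233; 100 pM -0.73 ± 0.47, adjusted p = 0.863). The replicate block called the change at 10 nM (-1.04, adjusted p = 0.0161) and not that at 100 pM. The lowest library, 10 nM replicate 3 at 18 h, rested on 32 counts (exact Poisson 95% interval 21.9 to 45.2, counting error only). The call at 100 pM for 6 h was lost when vehicle replicate 1, 100 pM replicate 1 or 100 pM replicate 3 was left out (adjusted p 0.0539 to 0.181), and with the 6 h libraries alone (0.0839). The call between the doses at 18 h was lost without 100 pM replicate 1, 100 pM replicate 3 or 10 nM replicate 3 (0.104 to 0.199).

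BCL2L1, whose main product BCL-XL blocks BAX and BAK1 as BCL2 does, moved the other way. At 6 h its vehicle libraries had 272 and 294 CPM, the 100 pM libraries 467 and 446 CPM and the 10 nM libraries 702 and 715 CPM. At 18 h the corresponding values were 293 and 293, then 506 and 409, then 522 and 467 CPM. The 3 groups were fully apart at 6 h in the order of dose, whereas at 18 h the libraries of the 2 doses overlapped and both lay above vehicle. The rise at 10 nM was 2.51-fold at 6 h (1.33 ± 0.11, adjusted p = 3.53e-05) and 1.69-fold at 18 h (0.76 ± 0.11, adjusted p = 0.000914). At 100 pM it was 1.62-fold at 6 h (0.69 ± 0.11, adjusted p = 0.00904) and 1.56-fold at 18 h (0.64 ± 0.11, adjusted p = 0.00773). The doses differed at 6 h (0.63 ± 0.11, adjusted p = 0.00223) and were not called apart at 18 h (0.11 ± 0.11, adjusted p = 0.497). The 10 nM effect was smaller at 18 h than at 6 h by 0.57 ± 0.16 on the log2 scale, which was just short of a call (adjusted p = 0.0507; 0.0420 with RLE scaling and 0.00475 with DESeq2). Left out singly, vehicle replicate 1 ended the call at 100 pM for 6 h (adjusted p 0.0971). At 100 pM for 18 h the call was lost without vehicle replicate 1 or 3 (0.0553 to 0.0603) and with the 18 h libraries alone (0.0505).

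MCL1, a short-lived anti-apoptotic protein on which many breast cancer cells depend, was higher at 100 pM than in vehicle at 6 h and lower at 10 nM than at 100 pM at both times. At 6 h its vehicle libraries measured 465 and 386 CPM, the 100 pM libraries 875 and 729 CPM and the 10 nM libraries 418 and 342 CPM. At 18 h they measured 494 and 421 CPM, 764 and 619 CPM, and 437 and 387 CPM in the same order. At both times the 2 libraries at 100 pM stood above all others and those at 10 nM overlapped vehicle. At 6 h MCL1 rose 1.89-fold at 100 pM (0.91 ± 0.17, adjusted p = 0.0180) and was 2.11-fold lower at 10 nM than at 100 pM (-1.08 ± 0.17, adjusted p = 0.00121). Of all genes tested 1.16% passed both of these tests at 6 h, and MCL1 was the 1 member that did. At 18 h the step down from 100 pM to 10 nM was called (-0.75 ± 0.17, adjusted p = 0.0108) and MCL1 was not among the 2.06% of genes that passed both tests at that time, since the rise at 100 pM was not called (0.60 ± 0.17, adjusted p = 0.0548; 0.0450 with RLE scaling and 0.00545 with DESeq2). Between 10 nM and vehicle the difference was -0.16 ± 0.17 at 6 h (adjusted p = 0.466) and -0.15 ± 0.17 at 18 h (adjusted p = 0.523), not called at either time. Paired by replicate number, however, the 10 nM library was below that of vehicle for both numbers at both times. Both of these small falls were called with replicate number as a block in the edgeR fit (adjusted p = 0.0272 at 6 h and 0.0465 at 18 h). The call at 100 pM for 6 h was lost without vehicle replicate 1, vehicle replicate 3 or 100 pM replicate 1 (adjusted p 0.0587 to 0.161) and with the 6 h libraries alone (0.0513). The call between doses at 18 h was lost without 100 pM replicate 1 (0.0662). The difference between the times of the 100 pM effect was not called (-0.32 ± 0.23, adjusted p = 0.901), except with the replicate block (-0.32, adjusted p = 0.0414).

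Set against each other within a library, per kb of exon, the 3 anti-apoptotic genes shifted in share. The ratio of MCL1 to BCL2L1 was 1.2 and 0.919 in vehicle and 1.31 and 1.14 at 100 pM at 6 h, and 0.417 and 0.335 at 10 nM. At 18 h it was 1.18 and 1.01 in vehicle, 1.06 and 1.06 at 100 pM, and 0.586 and 0.581 at 10 nM. BCL2L1 therefore exceeded MCL1 in all 4 libraries at 10 nM, and the ratios at 100 pM lay within or close to the vehicle range. The ratio of BCL2L1 to BCL2 was 61.2 and 106 in vehicle at 6 h and reached 1360 and 2130 at 10 nM for 18 h, with no overlap between doses at either time.

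**Figure D2:**
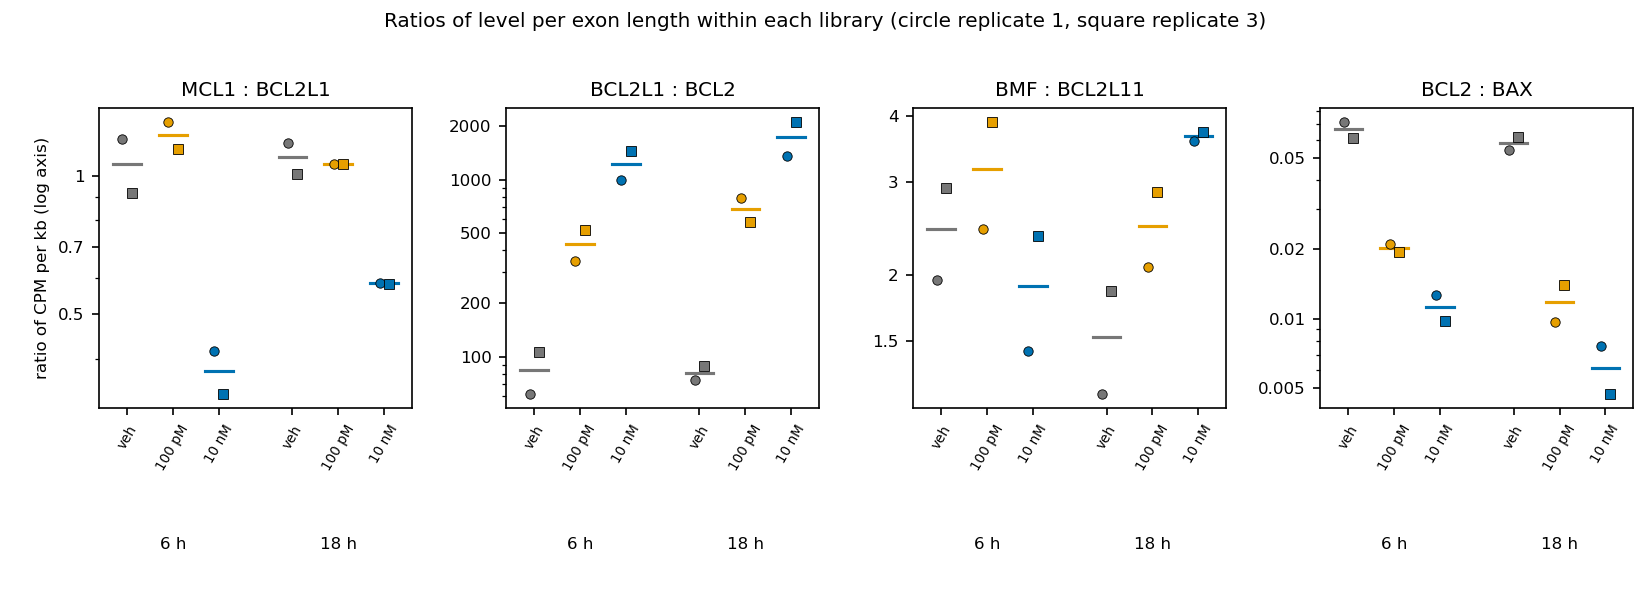
Ratio of the levels per kb of exon of 4 gene pairs within each library (log axis), by dose and time; circles are replicate 1, squares replicate 3 and lines the mean of 2. The ratio of MCL1 to BCL2L1 is below 1 in all 10 nM libraries, that of BCL2L1 to BCL2 rises with dose at both times, and that of BMF to BCL2L11 is highest, at 3.6 and 3.73, at 10 nM for 18 h within that time.

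The effectors changed little. BAX, which moves from the cytosol to mitochondria to form pores, stayed between 21.8 and 36.3 CPM over all 12 libraries and was called in none of the 9 comparisons. Its most negative value was -0.38 ± 0.23 for 10 nM against vehicle at 18 h (adjusted p = 0.245), where the libraries had 25.0 and 23.0 CPM against 36.3 and 26.4 CPM in vehicle. With replicate number as a block in the edgeR fit, this fall was called (-0.37, adjusted p = 0.00926). BAK1, the effector that resides in the mitochondrial membrane, had 25.6 and 23.2 CPM at 10 nM for 6 h against 19.5 and 15 CPM in vehicle and 18.7 and 14.6 CPM at 100 pM. Both 10 nM libraries lay above the other 4 at 6 h, by 1.41-fold over vehicle (0.50 ± 0.18, adjusted p = 0.0479) and 1.47-fold over 100 pM (0.55 ± 0.18, adjusted p = 0.0369). The first call was lost without 10 nM replicate 1, 10 nM replicate 3 or vehicle replicate 3 (adjusted p 0.0767 to 0.270), without the filter on low counts (0.0523) and with the 6 h libraries alone (0.0798). The second was lost without 10 nM replicate 1, 10 nM replicate 3 or 100 pM replicate 3 (0.0628 to 0.183) and with the 6 h libraries alone (0.0712). At 18 h BAK1 lay between 13.3 and 18.1 CPM in all 6 libraries and was not called.

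Among the BH3-only genes, BCL2L11 and BMF rose at 10 nM at both times. BCL2L11 encodes BIM, which binds all anti-apoptotic members and can activate BAX and BAK1. At 6 h the vehicle libraries had 45.2 and 32.4 CPM, the 100 pM libraries 34.7 and 24.0 CPM, and the 10 nM libraries 93.3 and 84.9 CPM. At 18 h it had 51.3 and 38.8 CPM, 40.0 and 30.0 CPM, and 84.1 and 79.7 CPM in the same order. All 4 libraries at 10 nM lay above the other 8. The rise over vehicle was 2.30-fold at 6 h (1.2 ± 0.23, adjusted p = 0.00344) and 1.82-fold at 18 h (0.86 ± 0.23, adjusted p = 0.0201). Over 100 pM it was 3.03-fold at 6 h (1.60 ± 0.24, adjusted p = 0.000966) and 2.34-fold at 18 h (1.23 ± 0.23, adjusted p = 0.00530). At 100 pM the value was -0.40 ± 0.23 at 6 h (adjusted p = 0.642) and -0.36 ± 0.23 at 18 h (adjusted p = 0.377), with libraries that overlapped vehicle. Between libraries with the same replicate number, 100 pM was below vehicle for both numbers at both times. With replicate number as a block in the edgeR fit, both falls were called (adjusted p = 0.0313 at 6 h and 0.0211 at 18 h). The call over vehicle at 18 h was lost without 10 nM replicate 1, 10 nM replicate 3 or vehicle replicate 3 (adjusted p 0.0510 to 0.125).

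BMF encodes a BH3-only protein that is held on the myosin V motor through dynein light chain 2 and released when cells detach. At 6 h vehicle libraries had 71.4 and 76.4 CPM, 100 pM libraries 68.5 and 75.7 CPM, and 10 nM libraries 108 and 162 CPM. At 18 h they had 49.4 and 58.4 CPM, 66.7 and 69.8 CPM, and 244 and 240 CPM. The 10 nM libraries lay above all others at each time, and at 100 pM the libraries overlapped vehicle at 6 h and lay above it at 18 h (0.34 ± 0.17, adjusted p = 0.247, not called). The rise at 10 nM was 1.83-fold at 6 h (0.87 ± 0.17, adjusted p = 0.00335) and 4.49-fold at 18 h (2.17 ± 0.17, adjusted p = 3.76e-05). The 10 nM effect was larger at 18 h than at 6 h by 1.30 ± 0.24 on the log2 scale (adjusted p = 0.0139), and this call was lost without vehicle replicate 1 at 18 h (0.0595) or vehicle replicate 3 at 6 h (0.0539). Against 100 pM, BMF at 10 nM was 1.87-fold higher at 6 h (0.91 ± 0.17, adjusted p = 0.00326) and 3.55-fold higher at 18 h (1.83 ± 0.17, adjusted p = 0.000146). In vehicle alone BMF was lower at 18 h than at 6 h by a log2 of -0.46 ± 0.17, with both 18 h libraries below both 6 h libraries, and this was not called (unadjusted p = 0.0251, adjusted p = 1.0).

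BIK, which acts at the endoplasmic reticulum and was named as a BCL2-interacting killer, moved in opposite senses at the 2 doses and at different times. At 6 h the vehicle libraries had 8.85 and 8.97 CPM, those at 100 pM 7.56 and 8.74 CPM, and those at 10 nM 13 and 13.3 CPM. At 18 h it had 8.61 and 8.88 CPM, 5.79 and 5.77 CPM, and 6.95 and 8.60 CPM. The 10 nM libraries stood above the rest at 6 h, and the 100 pM libraries stood below the rest at 18 h. BIK rose 1.48-fold at 10 nM for 6 h (0.56 ± 0.14, adjusted p = 0.00974), where it was also 1.61-fold above 100 pM (0.69 ± 0.14, adjusted p = 0.00419). It was 1.51-fold lower at 100 pM for 18 h (-0.60 ± 0.14, adjusted p = 0.0274), and 10 nM at 18 h was not called against vehicle (-0.17 ± 0.14, adjusted p = 0.374) or against 100 pM (0.43 ± 0.14, adjusted p = 0.0504; 0.0418 with DESeq2). The 10 nM effect was lower at 18 h than at 6 h (-0.73 ± 0.19, adjusted p = 0.0445). That call was lost without any 1 of 7 of the 8 libraries it rests on, the exception being 10 nM replicate 3 at 18 h (adjusted p 0.109 to 0.130), and without the filter on low counts (0.0589). The call at 100 pM for 18 h was lost without any 1 of its 4 libraries (0.0999 to 0.125) and with the 18 h libraries alone (0.133). The call at 10 nM for 6 h was lost without 10 nM replicate 3, vehicle replicate 1 or vehicle replicate 3 (0.0503 to 0.0541).

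BBC3 and PMAIP1, which encode PUMA and NOXA, are BH3-only genes known as targets of p53. For PMAIP1 the vehicle libraries at 6 h had 2.85 and 1.15 CPM, those at 100 pM 3.99 and 1.49 CPM, and those at 10 nM 9.69 and 5.76 CPM. At 18 h it had 4.36 and 2.17 CPM, 6.93 and 3.32 CPM, and 8.67 and 4.35 CPM. At 6 h both 10 nM libraries lay above the other 4, and at 18 h the 3 groups overlapped. Between libraries with the same replicate number, the level rose from vehicle to 100 pM to 10 nM for both numbers at both times. The rise at 10 nM for 6 h was 3.85-fold (1.95 ± 0.67, adjusted p = 0.0449), and this call was lost without 10 nM replicate 1, 10 nM replicate 3 or vehicle replicate 3 (adjusted p 0.0588 to 0.219), without the filter on low counts (0.0570) and with the 6 h libraries alone (0.0548). At 10 nM for 18 h the value was 1.0 ± 0.65 (adjusted p = 0.278). With replicate number as a block in the edgeR fit, PMAIP1 was called higher at 18 h at 10 nM (adjusted p = 0.000313) and 100 pM (0.0122). The block also called 10 nM above 100 pM at 6 h (8.14e-06). It did not call 100 pM against vehicle at 6 h or the doses apart at 18 h.

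For BBC3 the vehicle libraries at 6 h had 24.6 and 14.3 CPM, those at 100 pM 24.8 and 14 CPM, and those at 10 nM 10.6 and 6.71 CPM. At 18 h it had 35.2 and 17.6 CPM, 39.9 and 14.3 CPM, and 19.4 and 11.7 CPM. The 10 nM libraries lay below the other 4 at 6 h and overlapped them at 18 h, and no comparison was called (10 nM at 6 h -1.17 ± 0.57, adjusted p = 0.137; 10 nM at 18 h -0.76 ± 0.56, adjusted p = 0.337). Between libraries with the same replicate number, the 10 nM library was below that of vehicle and that of 100 pM for both numbers at both times. Replicate 1 was above replicate 3 in all 6 groups for both genes, by 1.57 to 2.80 times for BBC3 and 1.68 to 2.69 times for PMAIP1. Of all genes tested 21.1% had replicate 1 above replicate 3 in all 6 groups. The share of counts from 13 mitochondrially encoded genes was higher in replicate 3 in each group (6.69% to 10.8% over the libraries), and its part in these values was not tested.

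**Figure D3:**
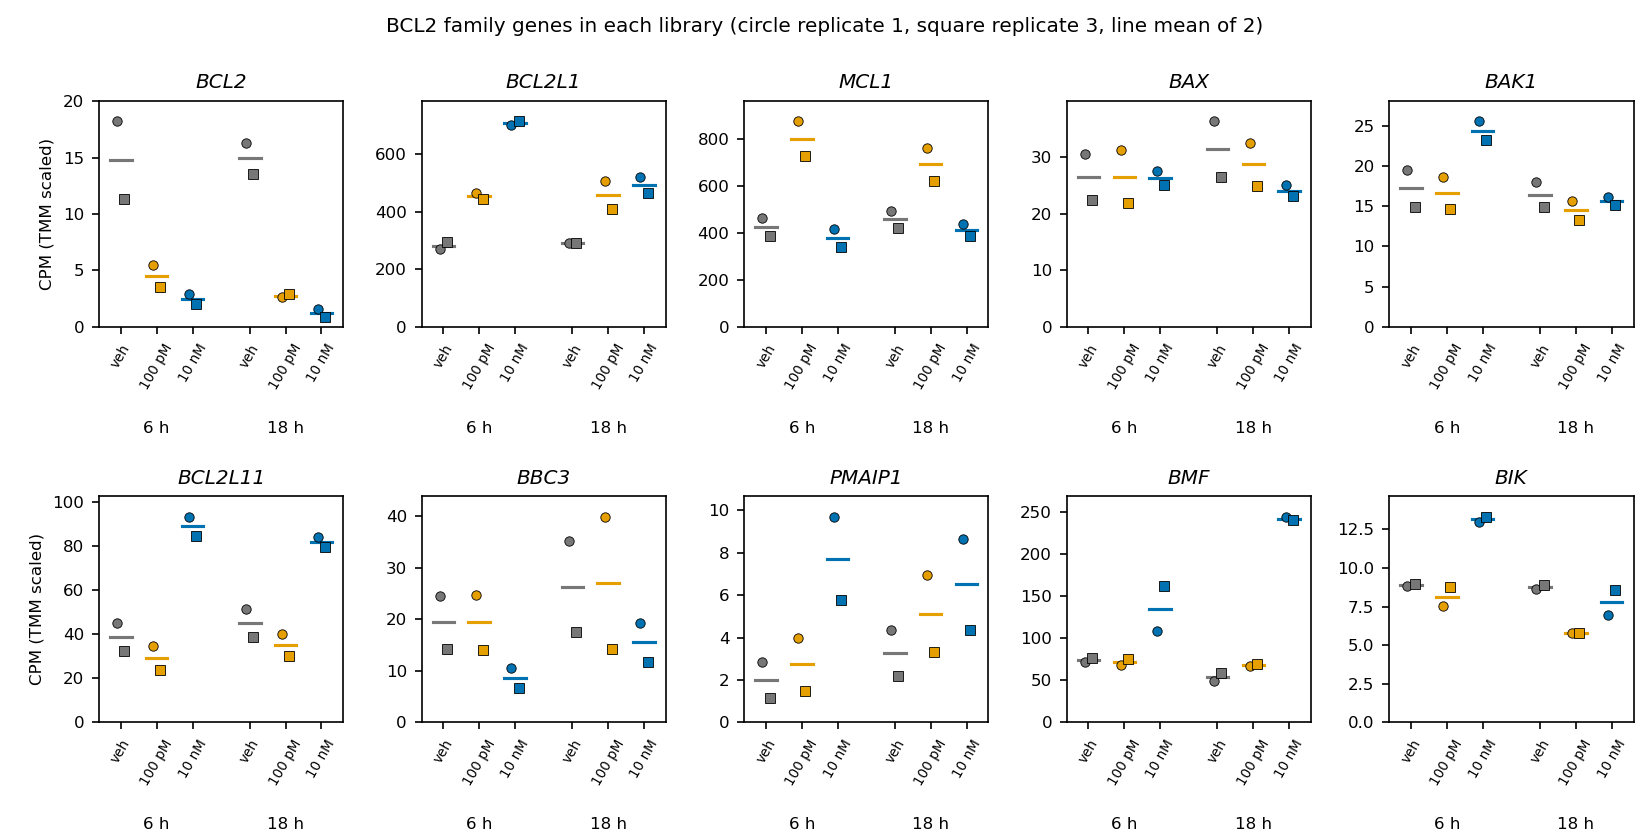
CPM of each BCL2 family gene in all 12 libraries, by dose and time, on linear axes from 0; circles are replicate 1, squares replicate 3 and lines the mean of 2. BCL2 is lowest and BMF highest at 10 nM for 18 h, MCL1 peaks at 100 pM at both times, BCL2L11 is raised at 10 nM at both times, and BBC3 and PMAIP1 separate by replicate number within each group.

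Counted over the 10 members, 2 rose and 1 fell at 100 pM for 6 h, where 3.48% of all genes tested were called (2.88% higher, 0.606% lower). At 100 pM for 18 h 1 rose and 2 fell, against 10.5% of all genes (6.57% and 3.89%). At 10 nM for 6 h 6 rose and 1 fell, against 42.0% of all genes (22.6% and 19.4%). At 10 nM for 18 h 3 rose and 1 fell, against 34.1% (19.0% and 15.2%), a share near that of the 10 members, so the count of 4 is not a result about the family. Between the doses 5 rose and 1 fell from 100 pM to 10 nM at 6 h, against 37.0% (20.1% and 16.8%), and 2 rose and 2 fell at 18 h, against 26.2% (14.8% and 11.4%). The comparisons of the 2 doses with vehicle share the vehicle libraries, and those between doses share libraries with both. The 10 nM effect differed between times for 2 members (BMF higher and BIK lower at 18 h), against 10.5% of all genes (4.55% and 5.99%), and the 100 pM effect for none, against 0.0144%. In vehicle over time edgeR called 0 members and 0 of all genes (0%), with 1 member and 178 genes at an unadjusted p under 0.05, and DESeq2 called 0 members and 2 genes. Leaving out 1 library lowered some of these counts, at 100 pM at both times, at 10 nM for 6 h and between the doses at 18 h. Fewer of all genes were called in those fits as well, so the drop is not particular to the family. The ranges for members and for all genes are given below. The median log2 fold change of the members was 0.53 at 10 nM for 6 h, beside -0.02 for all genes tested, and -0.11 at 10 nM for 18 h, beside -0.0020.

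**Figure D4:**
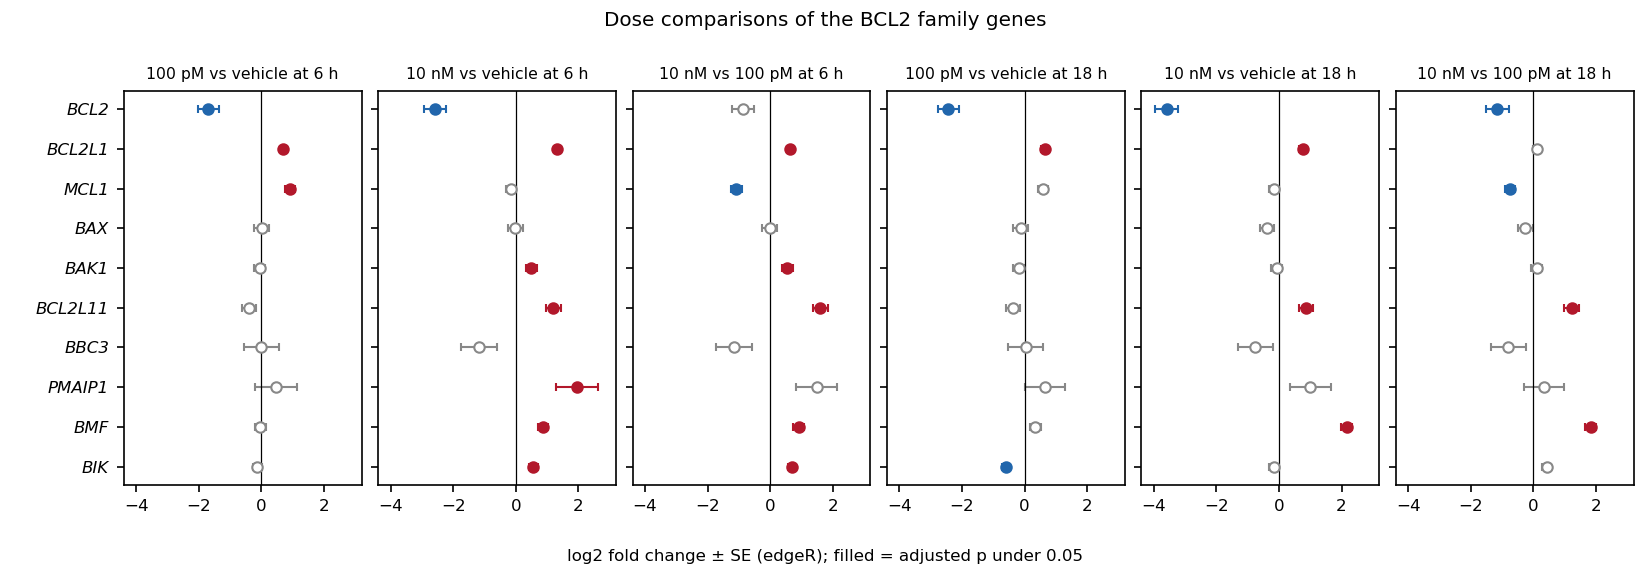
log2 fold change (x axis) with its SE for each BCL2 family gene in the 6 comparisons between doses; filled points have an edgeR adjusted p under 0.05, red higher and blue lower in the first group named. BCL2 lies left of 0 in all 6 panels, BCL2L1 right of 0 in all 6, and MCL1 to the right at 100 pM and to the left where 10 nM is compared with 100 pM.

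The rest of the apoptosis machinery was read from 6 further lists. Their counts stand beside the shares of all genes tested: at 10 nM 22.6% rose and 19.4% fell at 6 h (42.0% called), and 19.0% rose and 15.2% fell at 18 h (34.1% called). A list whose share is near these gives no result about the list. Of 13 other BCL2 family genes 10 could be tested, and 3 rose and 1 fell at 10 nM for 6 h (median 0.24) while 3 rose and 2 fell at 18 h (median -0.16), so 4 and 5 of 10 were called, against 42.0% and 34.1% of all genes. BNIP3L, a mitophagy receptor of the family, rose at 10 nM for 18 h (1.03 ± 0.12, adjusted p = 0.000239), BCL2L13, another, rose at 6 h (0.85 ± 0.13, adjusted p = 0.00110), and BCL2L2, an anti-apoptotic relative of BCL2L1, fell at 6 h (-0.55 ± 0.08, adjusted p = 0.000848). Of 15 apoptosome and executioner genes 8 rose and 2 fell at 6 h, and 5 rose and 1 fell at 18 h. Most of these genes act after the mitochondrion is breached, whereas VDAC1, VDAC2 and VDAC3 encode channels of its outer membrane. All of these channel genes were among the rises at 6 h. At 18 h the 6 of 15 called were near the 34.1% of all genes. At 6 h the rises included VDAC1 (1.36 ± 0.14, adjusted p = 9.26e-05), CASP6, an executioner caspase (1.12 ± 0.10, adjusted p = 3.69e-05), and DFFA, the inhibitor of the caspase-activated nuclease (0.87 ± 0.09, adjusted p = 0.000134). The 2 genes of this list called lower at 6 h were CASP9 (log2 fold change -1.23) and APAF1 (-0.49). Of 7 inhibitor of apoptosis genes none rose and 2 fell at 6 h, XIAP (-0.39 ± 0.09, adjusted p = 0.00786) and NAIP (-0.98 ± 0.34, adjusted p = 0.0446), and 1 rose and 1 fell at 18 h. The call of XIAP was lost without 10 nM replicate 3 (adjusted p 0.0503), and that of NAIP without 10 nM replicate 1, 10 nM replicate 3 or vehicle replicate 3 (0.0769 to 0.280), without the filter on low counts (0.0539) and with the 6 h libraries alone (0.0769).

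In the death receptor pathway, the other route into apoptosis, 12 of 15 genes could be tested, and 5 rose and 2 fell at 10 nM for 6 h while 6 rose and 2 fell at 18 h, beside 42.0% and 34.1% of all genes called. TNFRSF10A, a receptor for the death ligand TRAIL, went from 9.99 ± 1.70 CPM in vehicle to 61.3 ± 0.308 CPM at 10 nM for 6 h (SD, n = 2), a log2 fold change of 2.62 ± 0.25 (adjusted p = 8.49e-05). TNFSF10, which encodes TRAIL, went from 9.64 ± 0.535 to 1.83 ± 0.202 CPM (-2.39 ± 0.17, adjusted p = 1.28e-05). The receptor was as high at 18 h (59.5 ± 6.82 CPM), and the ligand was nearer to vehicle by then (7.41 ± 0.0887 against 11.1 ± 1.25 CPM, -0.58 ± 0.15, adjusted p = 0.0171). The call of TNFSF10 at 18 h was lost without 10 nM replicate 1, 10 nM replicate 3 or vehicle replicate 3 (0.0619 to 0.112). The 10 nM effect on TNFSF10 differed between the times (1.81 ± 0.22, adjusted p = 0.00316).

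Of 16 genes that regulate family members directly, 5 rose and 3 fell at 10 nM for 6 h, and 4 rose and none fell at 18 h, beside 42.0% and 34.1% of all genes called. FOXO4, a forkhead factor related to those known to act on BCL2L11, rose 5.18-fold at 6 h (2.37 ± 0.14, adjusted p = 5.65e-06) and 2.63-fold at 18 h (1.39 ± 0.14, adjusted p = 0.000103). The forkhead factors of the list went both ways: at 10 nM for 6 h FOXO1 was called higher (log2 fold change 1.74) and FOXO3 lower (-0.62). At 18 h FOXO1 was called higher (1.37) and FOXO3 was not called (-0.43). STAT3, a known activator of BCL2L1 and MCL1, rose at 10 nM for 6 h (1.06 ± 0.09, adjusted p = 3.81e-05). DYNLL1, the dynein light chain that holds BIM, rose at both doses, by 1.44 ± 0.13 at 100 pM (adjusted p = 0.000474) and 1.32 ± 0.13 at 10 nM (adjusted p = 9.54e-05) at 6 h. Of 16 p53 target genes outside the family, 4 rose and 4 fell at 10 nM for 6 h, and 3 rose and 3 fell at 18 h, again beside 42.0% and 34.1% of all genes. CDKN1A, the cell cycle inhibitor p21, rose at 10 nM (1.08 ± 0.15 at 6 h, adjusted p = 0.000518), as did RRM2B, a ribonucleotide reductase subunit (1.29 ± 0.09, adjusted p = 1.79e-05), and XPC, a DNA repair factor, fell at 18 h (-0.48 ± 0.07, adjusted p = 0.00107). The 6 lists had 10, 15, 7, 12, 16 and 16 genes tested. At 100 pM they together held 4 calls at 6 h and 6 at 18 h, each of them a rise. Of all genes 3.48% were called at 6 h (2.88% higher, 0.606% lower) and 10.5% at 18 h (6.57% and 3.89%). Rises made up 82.6% and 62.8% of all calls at these times, so the direction is not a result about the lists. The medians at 10 nM for 6 h were 0.29 for the apoptosome and executioner genes, -0.14 for the inhibitors of apoptosis, 0.06 for the death receptor pathway, 0.27 for the direct regulators and 0.20 for the p53 targets, beside -0.02 for all genes tested. With 1 library left out, the apoptosome and executioner list had 6 to 7 rises and 1 fall at 10 nM for 6 h (8 and 2 with all libraries), the death receptor list 4 to 5 rises and 2 falls, the direct regulators 5 rises and 2 falls, and the p53 targets 3 to 4 rises and 0 to 2 falls. No list was tested as a set.

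**Figure D5:**
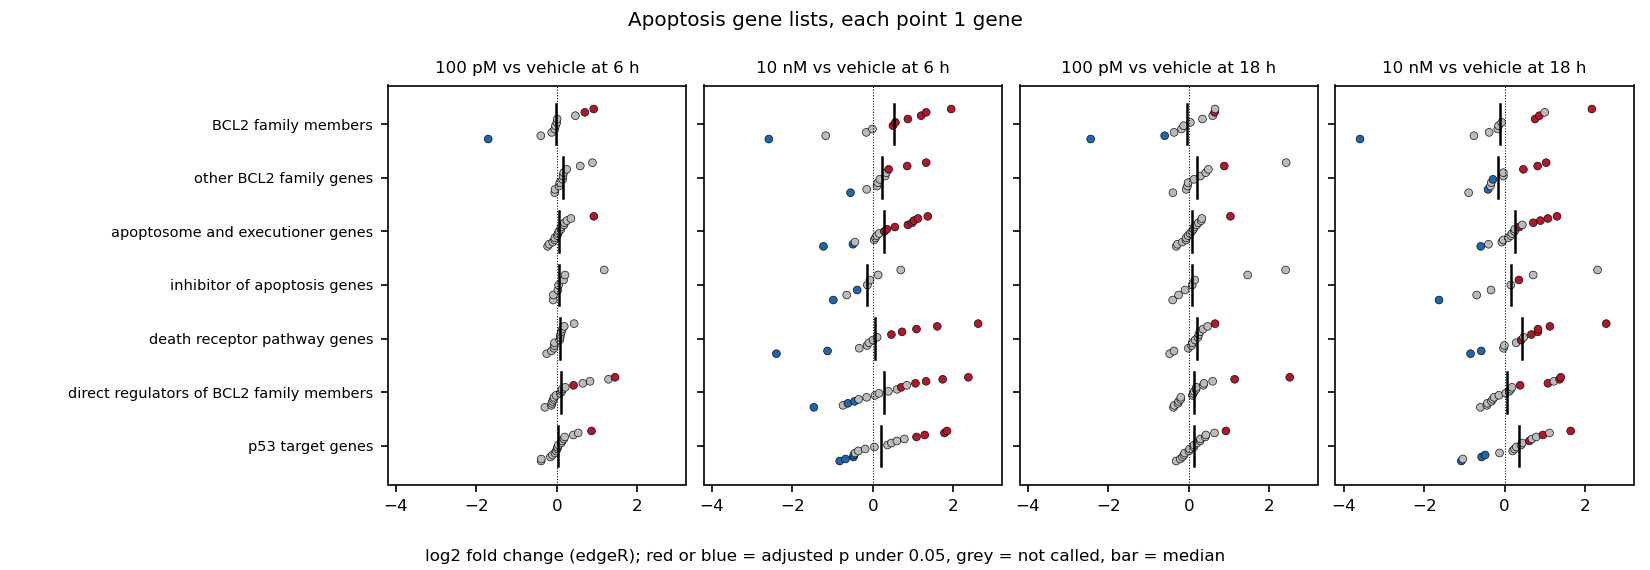
log2 fold change (x axis) of each tested gene of the BCL2 family members and of 6 apoptosis gene lists in the 4 comparisons of a dose with vehicle; each point is 1 gene, red or blue where the edgeR adjusted p is under 0.05, and bars are medians. Most points at 100 pM are grey and near 0, and at 10 nM the lists hold both rises and falls, with TNFRSF10A (2.62) and TNFSF10 (-2.39) the extremes of the death receptor list at 6 h.

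For the 3 members with the largest called changes against vehicle, the genes with the most similar pattern over the 12 libraries were looked up among 10981 genes, by Pearson's r of log2 CPM. These values describe 12 libraries that share 6 groups, so a dose response common to many genes enters each r. A difference between the replicate numbers that genes have in common, which was large for PMAIP1, enters it as well. The parts of the 2 were not tested. BCL2 was most like IFT57, an intraflagellar transport protein, FUT8, a fucosyltransferase, and SPRY1, an inhibitor of growth factor signalling, each with r = 0.98. The mean of FUT8 at 6 h, for example, was 54.9 CPM with vehicle, 25.6 CPM with 100 pM and 15.9 CPM with 10 nM. BMF was most like TMED2, a cargo receptor of the secretory pathway, KLHDC2, a ubiquitin ligase subunit, and ECI1, an enzyme of fatty acid oxidation, each with r = 0.98. PMAIP1 was most like GOLGA7 (r = 0.98), part of a palmitoyltransferase, CHAC1 (r = 0.97), which degrades glutathione, and GARS (r = 0.97), the glycyl-tRNA synthetase. CHAC1 ran from 1.83 CPM in vehicle to 14.4 CPM at 10 nM at 6 h.

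In GENCODE 29 5 of the members overlap exons of another gene: BCL2L1 with ABALON, BAK1 with GGNBP1, BCL2L11 with MIR4435-2HG and BMF with BMF-AS1 on the opposite strand, and MCL1 with ADAMTSL4-AS1 on its own strand. Whether the counting used strand is not given in the sources used here, so reads of these pairs may not be told apart.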

How the data were processed

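RNA of T47D cells was sequenced from Nextera libraries of total RNA in 12 samples, 2 for each of 6 groups of dose and time. The deposited table holds raw counts of reads per gene symbol, which are whole numbers with no normalization. STAR, DESeq2 and the build hg19 are named in the submitters' processing notes with no role or version, and for the counter, the annotation and the strand setting the sources used here give nothing. Of 20114 genes 2709 had no count.

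The tests were run with edgeR 4.0.16 under R 4.3.3 (limma 3.58.1 as its base, DESeq2 1.42.0 as an alternative), and tables and figures were made with Python 3.11.15, pandas 2.3.3, scipy 1.17.1 and matplotlib 3.10.9. Using filterByExpr and the 6 groups, 13872 genes were retained, scaled by TMM and fitted together with 1 coefficient per group and 6 residual degrees of freedom. edgeR's quasi-likelihood F test (robust, two-sided) was run for 9 comparisons, with Benjamini-Hochberg adjustment over all genes tested and a call at an adjusted p under 0.05. Standard errors are the log2 fold change divided by the square root of F. Fold changes are computed on counts, and CPM on effective library sizes. Levels per kb use the union of exons in GENCODE 29 (basic set), whose build differs from hg19, so no coordinate of the counting was used, and promoters come from RefSeq by symbol. The script was tested on simulated data. Counts of replicates in a group differed by more than sampling noise (chi-square per degree of freedom of 42 to 64).

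The members and the gene lists were chosen with earlier results of these data known. All members are reported. From each list up to 3 genes called against vehicle with the smallest adjusted p could be named. APAF1, CASP9, VDAC2, VDAC3, FOXO1 and FOXO3 were named besides these. The likeness search took the 3 members with the largest called change and, for each, the 3 closest genes. These came from genes whose log2 CPM averaged 2 or more, leaving out clone names, antisense genes and pseudogenes. Alternatives were a block on replicate number, DESeq2, no filter on low counts, RLE scaling, a fit to 1 time alone and leaving out each library, where the lone library of its group is assumed to vary like the others. Reads carry no molecular identifiers, so the 95% Poisson interval covers counting error only.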

Additional observations from a re-analysis of the deposited data

Results flagged for a closer look

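The effect of 10 nM progestin differed between the times by a test of that difference itself for 2 members. For BMF the log2 fold change over vehicle was larger at 18 h than at 6 h by 1.30 ± 0.24 (edgeR adjusted p = 0.0139), and all 4 libraries at 10 nM lay above all vehicle libraries. Part of the 1.30 lies in vehicle, where BMF was lower at 18 h than at 6 h (-0.46 ± 0.17, edgeR unadjusted p = 0.0251, not called). For BIK the log2 fold change over vehicle was lower at 18 h than at 6 h, with a difference of -0.73 ± 0.19 (adjusted p = 0.0445). Both 10 nM libraries lay above both vehicle libraries at 6 h and below them at 18 h. The 18 h value was not called (-0.17 ± 0.14, adjusted p = 0.374), and its closest libraries had 8.60 CPM at 10 nM and 8.61 CPM in vehicle. Of all genes tested 10.5% were called for a difference of the 10 nM effect between the times. The call of BMF was lost without vehicle replicate 1 at 18 h (adjusted p 0.0595) or vehicle replicate 3 at 6 h (0.0539). That of BIK was lost without any 1 of its 8 libraries other than 10 nM replicate 3 at 18 h (0.109 to 0.130).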

How the results depend on the processing

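None of the 29 called member values changed sign in any of 267 alternatives, and 15 of them were called in every alternative: BCL2 at 10 nM at both times and at 100 pM for 18 h, BCL2L1 at 10 nM at both times and between the doses at 6 h, MCL1 between the doses at 6 h, BCL2L11 at 10 nM for 6 h and between the doses at both times, BMF at 10 nM against vehicle and 100 pM at both times, and BIK between the doses at 6 h. The other 14 lost the call in at least 1 alternative, as given above. Of 593 alternatives to the 61 values that were not called, 31 became calls and 70 changed sign without a call in either fit. Replicate numbers are shared by the groups, but the labels do not say what they stand for. Deviations from the group mean of libraries with the same number correlated between groups with r of 0.464 to 0.677 (across genes, 15 pairs of groups). With the replicate block edgeR's biological coefficient of variation was 0.0678, against 0.163 without it, and 21 member calls were gained and 0 lost. The gains include a fall of BBC3 at 10 nM in 4 comparisons, with adjusted p = 0.000178 against vehicle and 0.00022 against 100 pM at 6 h, and 0.00326 and 0.00444 at 18 h. The block gave 7 members at 100 pM for 18 h, 8 at 10 nM for 18 h, and 1 (100 pM) and 6 (10 nM) for the change of effect between times. Over all genes it gave 1696 calls at 100 pM for 6 h (483 without it), 4728 at 100 pM for 18 h (1450), 7767 at 10 nM for 18 h (4734), 8231 and 6958 between the doses at 6 h and 18 h (5127 and 3635), 4 in vehicle over time (0), and 777 and 4863 for the change of the 100 pM and 10 nM effects (2 and 1462). DESeq2 gained 5 member calls and lost 0, and called 849 genes at 100 pM for 6 h, 2231 at 100 pM for 18 h, 2 in vehicle over time, and 108 and 2316 for the changes of effect. For the change of the 100 pM effect 5 genes were called without the filter on low counts and 1 with RLE scaling. Fits to 1 time alone called 1 member at 100 pM for 6 h, and 1 member and 655 genes at 100 pM for 18 h. With each library left out in turn, the calls were 221 to 308 genes and 0 to 2 members at 100 pM for 6 h, 512 to 845 and 1 to 2 at 100 pM for 18 h, 4070 to 4579 and 4 to 6 at 10 nM for 6 h, 3202 to 3588 and 3 to 4 at 10 nM for 18 h, 3281 to 4242 and 5 to 6 between the doses at 6 h, 2286 to 2900 and 2 to 5 at 18 h, 467 to 860 and 0 to 2 for the change of the 10 nM effect, and 0 for that of the 100 pM effect and for vehicle over time. The cause of these shifts was not tested. Depth limits BCL2 at 10 nM and PMAIP1 in vehicle most, with 32 and 45 counts in their lowest libraries.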

Other observations

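Several relatives of the family were nearly silent in these cells. BCL2L10, BCL2L14 and BCL2L15, which have tissue-restricted expression, reached at most 1, 17 and 2 counts in any library. In the death receptor pathway the ligand FASLG, the decoy receptor TNFRSF10D and the initiator caspase CASP10 reached at most 4, 3 and 5 counts. These 6 genes were too low to test.

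Most members also followed the replicate number. MCL1, BAX, BAK1, BCL2L11, BBC3 and PMAIP1 were higher in replicate 1 than in replicate 3 in all 6 groups, with median ratios of 1.2, 1.34, 1.2, 1.33, 1.75 and 2.05. BMF and BIK were higher in replicate 1 in 1 of 6 groups each, with median ratios of 0.919 and 0.972. Of all genes tested 21.1% were higher and 20.5% lower in replicate 1 in all 6 groups.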
